A study of Mus musculus with 6 samples.

Results

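The genes described here encode 9 components of the complement system: the C1q chains C1qa, C1qb and C1qc, the C1 proteases C1ra and C1s1, and C2, C4b, C3 and Cfb. They were taken by gene name from a table of 41064 genes, and each name matched 1 row. RNA was measured in 6 libraries of mouse aorta, 3 labelled Josd2 knockout (KO) and 3 labelled wild type (WT). Mice of both groups received angiotensin II (Ang II), a peptide hormone that raises blood pressure, so there was no untreated group. The sources used here do not state strain, age, sex, dose, duration or how the Josd2 allele was made. Per the series' design text the aortas came from 3 mice in each group, but the labels do not say which animal each library came from, so p-values measure the spread between these libraries only.

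Complement is a set of blood and tissue proteins that tag and open microbes and damaged cells. In the classical pathway C1q binds antibody or altered surfaces, its partner proteases C1r and C1s cut C4 and C2, and the fragments form an enzyme that cuts C3. The alternative pathway, which needs factor B (Cfb), amplifies the deposited C3, and soluble and membrane regulators hold both in check. Liver makes most circulating complement, whereas in tissues C1q comes mainly from macrophages and related myeloid cells, and C1r, C1s, C3 and C4 are also made by fibroblasts and other stromal cells.

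Total counts were 63612353 to 75886761 per library. Levels are given below as CPM, counts scaled to a common library size by TMM, a method that sets aside genes with extreme ratios. Differences are log2 fold changes of KO over WT from edgeR's quasi-likelihood test, with p-values adjusted by Benjamini-Hochberg over the 20132 genes tested and a threshold of 0.05. The scale matters here because mitochondrial genes took 23.8 to 23.9% of the counts in the KO libraries and 36.2% in the WT libraries. Without TMM, dividing by library totals moved the median gene by 0.41 on the log2 scale, and values on that scale are given beside the results they change. On library totals 9425 of the 20132 genes were called higher and 768 lower, and every count of calls on that scale stands against these. Josd2 itself, a deubiquitinase gene, had 21.7, 19.9 and 21.4 CPM in the KO libraries, against 29.9, 30.99 and 29.3 CPM in the WT libraries (log2 fold change -0.52, SE 0.07, adjusted p = 0.000244 in edgeR). Josd2 transcript was therefore still present at 0.698-fold of WT, and on library totals its difference was -0.11 (adjusted p = 0.231 in edgeR). The groups are accordingly named by their labels throughout.

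The 9 components changed in opposite directions, the 3 C1q chains apart from the other 6. The 3 C1q chains fell in the KO libraries, to between 1.72-fold and 2.21-fold lower than WT. The C1 proteases, C4b, C2, C3 and Cfb rose, by between 1.13-fold and 1.87-fold. All 9 passed the filter on low counts and the test, 6 higher and 3 lower, against a background of 24.7% of all genes tested that were called in either direction, 13.2% higher and 11.5% lower. Among genes with 1000 to 20000 counts on average, the range in which the 9 lie, 41.0% were called. For all 9 the KO and WT values did not overlap, as for 41.1% of all genes tested, 21.3% with KO higher and 19.8% with KO lower. Each direction and call held under every alternative processing tried, on library totals too.

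**Figure D1:**
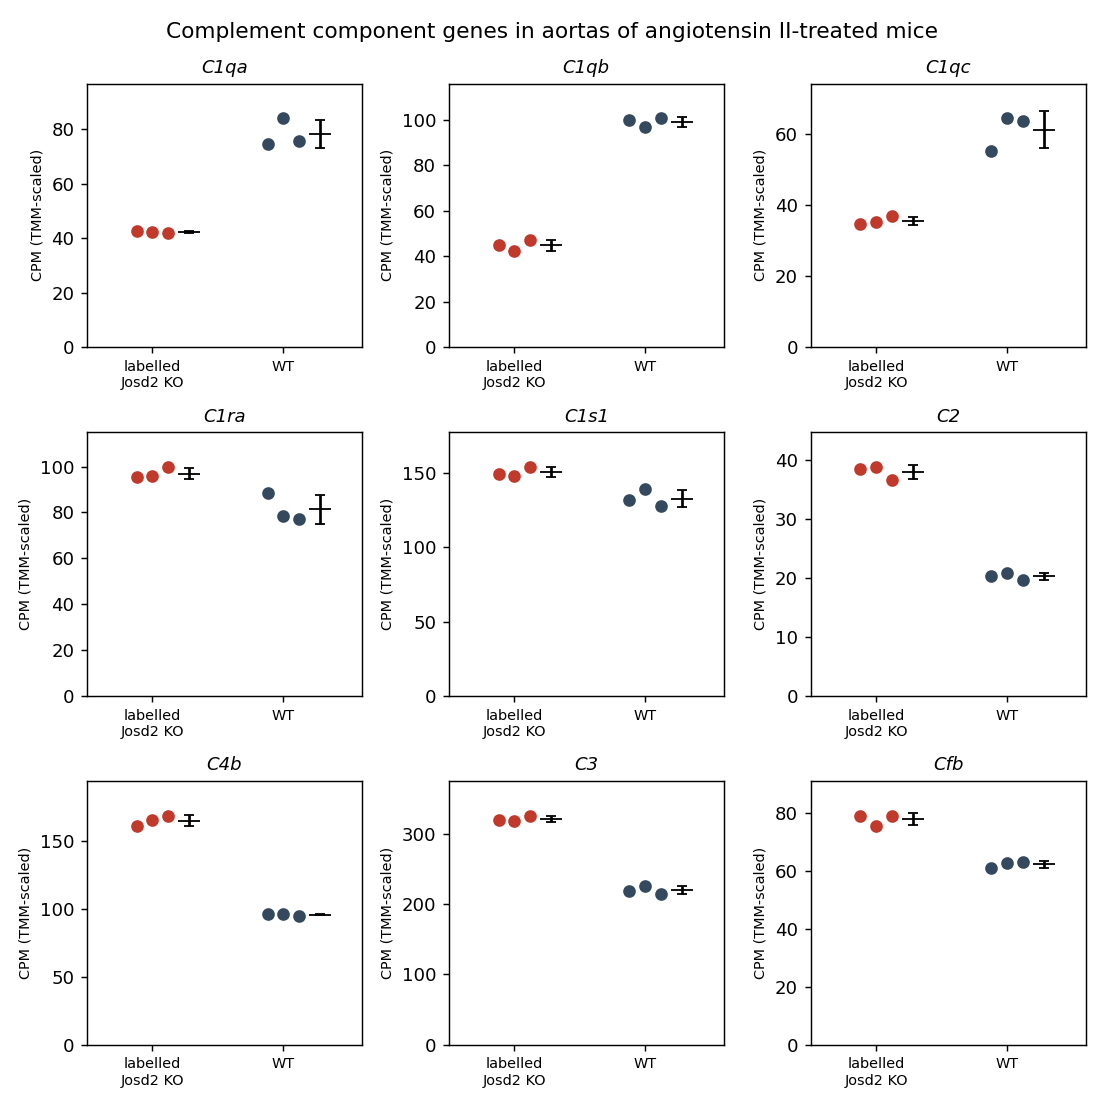
Level of each of the 9 complement components in CPM (TMM scaled) in the 3 KO and 3 WT libraries, with points for libraries and bars for the mean and SD. C1qa, C1qb and C1qc are lower in every KO library than in any WT library, and the other 6 genes are higher in every KO library.

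The C1q chains form the recognition part of C1. Their genes stand in a row on the minus strand of chromosome 4 (GRCm38): C1qb at chr4:136880129-136886187, C1qc at chr4:136889804-136893065 and C1qa at chr4:136895917-136898803. Only 3.62 and 2.85 kb separate neighbours. RefSeq start sites were matched for 5 of the 9 components, and the bases before the start are shown for 2 of the chains, so that the letters in front of neighbouring genes that fell together can be read. Sequences are from RefSeq on GRCm38.p6, minus strand, 5′ to 3′, for C1qb at chr4:136886201-136886450 and for C1qc, cut where an annotated exon begins, at chr4:136893066-136893164. Capitals mark a match to GAGGAAG, letters bound by the myeloid factor PU.1, here on the opposite strand.
C1qb: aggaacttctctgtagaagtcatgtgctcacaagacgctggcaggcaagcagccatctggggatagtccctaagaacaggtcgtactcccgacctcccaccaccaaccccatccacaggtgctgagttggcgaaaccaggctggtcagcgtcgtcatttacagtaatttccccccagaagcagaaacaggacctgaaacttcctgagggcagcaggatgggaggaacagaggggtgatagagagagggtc
C1qc: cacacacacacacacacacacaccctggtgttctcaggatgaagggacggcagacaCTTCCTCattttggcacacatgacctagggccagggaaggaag
The capitals in C1qc lie 194 to 188 bases before the RefSeq start. Of the 32851 promoter windows of 250 bases in the table, 10.6% held GAGGAAG on either strand, so this match only describes the letters. C1qb held none of the 6 motifs searched on both strands, which were TATAAA, TTGCNNAA for C/EBP factors, TTCNNNGAA for STAT factors, GAGGAAG, and the NF-kappaB and interferon regulatory factor motifs.

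C1qb, which encodes the B chain, had 45.1, 42.2 and 47.0 CPM in the KO libraries, against 99.8, 96.7 and 100.8 CPM in the WT libraries. Every KO library was below every WT library by a wide margin (log2 fold change -1.15, SE 0.05, adjusted p = 3.27e-08 in edgeR). C1qa, the A chain, had 42.5, 42.3 and 42.0 CPM in the KO libraries, against 74.5, 84.1 and 75.7 CPM in the WT libraries (log2 fold change -0.89, SE 0.06, adjusted p = 6.03e-07 in edgeR). Its KO values were nearly identical, with a coefficient of variation (CV) of 0.612%, and the second WT library was the highest. C1qc, the C chain, had 34.6, 35.4 and 36.8 CPM in the KO libraries, against 55.2, 64.6 and 63.9 CPM in the WT libraries (log2 fold change -0.78, SE 0.07, adjusted p = 8.19e-06 in edgeR). The first WT library was the lowest of its group, and the groups did not overlap. On library totals the chains fell by less, by 0.74 for C1qb, 0.48 for C1qa and 0.37 for C1qc on the log2 scale.

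The chains are assembled together in fixed proportion, so their levels per length were compared as ratios of FPKM (fragments per kilobase of transcript scaled to the library's total, as deposited). C1qb over C1qa was 1.01, 0.954 and 1.07 in the KO libraries, against 1.28, 1.10 and 1.27 in the WT libraries. The groups did not overlap, and the exact two-sided permutation p was 0.10, the smallest that 3 against 3 can give. C1qc over C1qa averaged 0.454 ± 0.0172 in KO libraries and 0.422 ± 0.0288 in WT libraries (SD, n = 3 each), and these values overlapped (exact permutation p = 0.30). The size of this ratio depends on the length used for FPKM, which is not stated. The longest C1qc transcript has 1203 bases and all its exons 1931. Set against those of C1qa, the deposited counts and FPKM of C1qc correspond to the 1931 bases.

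Markers of macrophages, the main tissue source of C1q, were lower alongside the chains. Of 10 macrophage markers tested, 8 were lower, 1 was higher and 1 did not pass, with a median log2 fold change of -0.59 against -0.00 for all genes tested. Over all genes tested 11.5% were lower and 13.2% higher. Their summed level was 391.5 to 397.3 CPM in the KO libraries and 717 to 728 CPM in the WT libraries. Lyz2, the lysozyme gene, had 156 CPM on average in KO libraries and 401 CPM in WT libraries (log2 fold change -1.36, SE 0.03, adjusted p = 1.51e-11 in edgeR). It made up most of the summed CPM in the WT libraries but not in the KO libraries. Csf1r, the receptor that keeps macrophages alive, fell by 0.46 and Adgre1, the F4/80 antigen, by 0.73 on the log2 scale. Cd163, the haemoglobin scavenger receptor of resident macrophages, rose (log2 fold change 0.66, SE 0.08, adjusted p = 8.41e-05 in edgeR). On library totals 5 of the 10 markers were lower and 2 higher, and Csf1r, at -0.05, was no longer called. In bulk tissue, fewer cells of a type and less RNA per cell cannot be told apart, and the part of macrophage content in the C1q values was not tested.

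The size of the C1q difference relative to these markers depended on the marker. Mean C1q FPKM over Csf1r averaged 4.15 ± 0.209 in KO libraries and 5.96 ± 0.137 in WT libraries (SD, n = 3 each), lower in every KO library. Relative to Lyz2 the order turned round, with 0.282 ± 0.00608 in KO libraries and 0.217 ± 0.00308 in WT libraries. Both comparisons had an exact permutation p of 0.10, the smallest possible. Relative to Adgre1 the ratio was 7.43 ± 1.41 in KO libraries and 8.69 ± 0.471 in WT libraries, and the values overlapped (exact permutation p = 0.30). The sum of the chains over the sum of all 10 markers was 0.534 ± 0.00970 in KO libraries and 0.478 ± 0.0105 in WT libraries. Without Lyz2 the same ratio was 1.45 ± 0.0227 in KO libraries and 1.81 ± 0.0901 in WT libraries, so this direction was set by Lyz2.

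**Figure D2:**
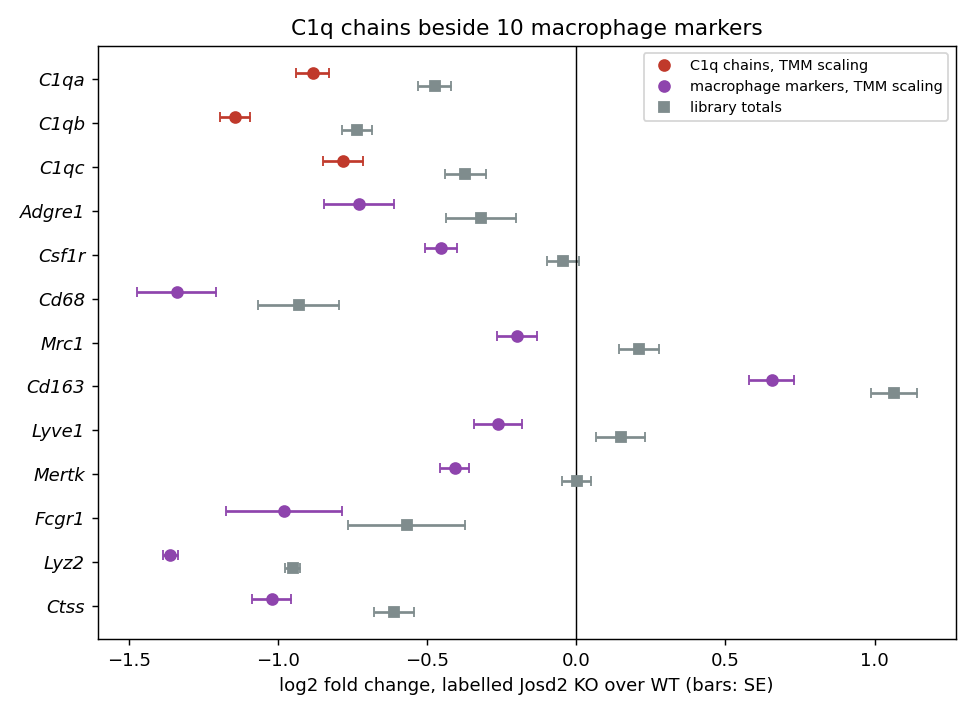
Log2 fold change of KO over WT, with its SE, for the 3 C1q chains and the 10 macrophage markers, on TMM-scaled counts (circles) and on library totals (grey squares). With TMM the chains, at -0.78 to -1.15, lie among the macrophage markers, from Lyz2 at -1.36 up to Mrc1 at -0.20, with Cd163 apart at 0.66; on library totals Mrc1, at 0.21, is called higher, and Lyve1, at 0.15, and Mertk, near 0, are not called.

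The proteases C1r and C1s, which C1q carries and activates, moved the other way from C1q and by small amounts. Their genes face each other on chromosome 6 (GRCm38), C1ra on the plus strand at chr6:124512405-124523443 and C1s1 on the minus strand at chr6:124530345-124542359. The 250 bases before a RefSeq start of C1s1, at chr6:124542360-124542609 on the minus strand, are shown with a match to TTGCNNAA, the letters of C/EBP factors, in capitals. The match is on the opposite strand, 242 to 235 bases before that start. The window of a further C1s1 start, which ends at chr6:124542571, does not reach it, and the C1ra window held no match to the motifs searched. TTGCNNAA was found in 9.56% of all promoter windows, so this match only describes the letters.
C1s1: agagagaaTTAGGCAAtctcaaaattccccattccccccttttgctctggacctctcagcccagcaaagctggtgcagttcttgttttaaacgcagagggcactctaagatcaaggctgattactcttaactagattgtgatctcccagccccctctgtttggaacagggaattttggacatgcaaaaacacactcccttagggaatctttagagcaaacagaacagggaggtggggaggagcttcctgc
C1s1, the C1s protease, had 149.0, 148.1 and 153.9 CPM in the KO libraries, against 131.3, 138.8 and 127.8 CPM in the WT libraries. The lowest KO library was above the highest WT library (log2 fold change 0.18, SE 0.04, 95% interval 0.10 to 0.27, adjusted p = 0.00545 in edgeR). C1ra, the C1r protease, had 95.3, 95.8 and 99.9 CPM in the KO libraries, against 88.4, 78.4 and 77.1 CPM in the WT libraries (log2 fold change 0.25, SE 0.05, 95% interval 0.13 to 0.38, adjusted p = 0.00567 in edgeR). The first WT library came nearest to the KO group. On library totals the differences were larger, 0.59 for C1s1 and 0.66 for C1ra.

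C1ra counts carry a further limit, since 81.5% of its transcript has at least 97% identity over 100 bases or more with C1rb, its near copy on the same chromosome. C1rb had 9.56 ± 3.69 CPM in KO libraries and 8.95 ± 1.48 CPM in WT libraries (SD, n = 3 each), and the sum of the pair gave a log2 fold change of 0.24 (adjusted p = 0.00243 in edgeR). For C1s1, 15.1% of the transcript is shared with Gm16567, an antisense gene that was listed at 0 counts in all 6 libraries. Summed with its own copy C1s2, C1s1 gave 0.18 (adjusted p = 0.00662 in edgeR).

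The balance of C1 subunit transcripts differed between the groups. C1s1 FPKM over the mean of the C1q chains was 1.42, 1.45 and 1.44 in the KO libraries, against 0.656, 0.655 and 0.617 in the WT libraries, a 2.24-fold difference. C1ra over the same mean was 0.956, 0.986 and 0.979 in the KO libraries, against 0.464, 0.388 and 0.391 in the WT libraries, a 2.35-fold difference. Neither ratio overlapped between the groups (exact permutation p = 0.10 for each). These ratios do not depend on the scaling, since both genes are read from the same library. C1s1 over C1ra averaged 1.48 ± 0.0119 in KO libraries and 1.56 ± 0.137 in WT libraries (SD, n = 3 each), with overlapping values.

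The substrates of C1s rose more than the protease. C2, which supplies the catalytic part of the classical C3 convertase, had 38.4, 38.8 and 36.5 CPM in the KO libraries, against 20.4, 20.8 and 19.6 CPM in the WT libraries. This 1.87-fold difference was the largest increase among the 9 genes (log2 fold change 0.90, SE 0.06, adjusted p = 1.73e-06 in edgeR). C4b, which encodes complement C4, had 160.6, 165.3 and 168.3 CPM in the KO libraries, against 96.2, 95.8 and 94.9 CPM in the WT libraries (log2 fold change 0.78, SE 0.03, adjusted p = 2.95e-08 in edgeR). The WT values of C4b varied by a CV of only 0.665%. C2 over C4b, in FPKM, averaged 0.339 ± 0.0171 in KO libraries and 0.312 ± 0.00767 in WT libraries (SD, n = 3 each), and the libraries overlapped.

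C3, the point where the pathways meet, was the most abundant of the 9 in CPM. It had 319.1, 318.3 and 325.9 CPM in the KO libraries, against 219.3, 226.5 and 214.7 CPM in the WT libraries (log2 fold change 0.54, SE 0.03, adjusted p = 1.08e-07 in edgeR). All KO libraries were above all WT libraries, a 1.46-fold difference. Cfb, the alternative pathway counterpart of C2, had 78.8, 75.3 and 79.0 CPM in the KO libraries, against 60.8, 62.6 and 63.2 CPM in the WT libraries (log2 fold change 0.32, SE 0.04, adjusted p = 0.000277 in edgeR). Cfb thus rose 1.25-fold, less than its neighbour C2. On library totals the log2 fold changes were 1.31 for C2, 1.19 for C4b, 0.95 for C3 and 0.73 for Cfb.

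These 4 genes lie on the minus strand of chromosome 17 (GRCm38). C4b at chr17:34728380-34743882, Cfb at chr17:34856374-34862518 and C2 at chr17:34862604-34898265 belong to the major histocompatibility region, with 0.085 kb between Cfb and C2. C3 lies apart, at chr17:57203970-57228136. The bases before its start, at chr17:57228137-57228386 on the minus strand, are shown because they hold a match to TTGCNNAA close to the start, 45 to 38 bases before it, in capitals.
C3: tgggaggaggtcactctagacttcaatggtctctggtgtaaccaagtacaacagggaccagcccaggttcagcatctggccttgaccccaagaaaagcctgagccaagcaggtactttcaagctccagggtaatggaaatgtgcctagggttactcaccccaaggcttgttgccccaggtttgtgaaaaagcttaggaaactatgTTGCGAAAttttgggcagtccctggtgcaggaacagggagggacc
TTGCNNAA was found in 9.56% of all promoter windows, and no match to the other motifs was found in the C3 window.

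How reads were divided among overlapping genes limits the values of C2 and Cfb. An annotated read-through gene on the same strand, Gm20547, shares 81.7% of the Cfb transcript and 62.5% of the C2 transcript. Gm20547 was not among the genes tested near these loci, and its own counts were not analysed here. C2 exons also overlap Zbtb12 on the other strand. C4b shares 16.9% of its transcript with C4a, its near copy in the same region. C4a had 4.10 ± 1.43 CPM in KO libraries and 3.01 ± 0.252 CPM in WT libraries (SD, n = 3 each), and the sum of both C4 genes gave the same log2 fold change of 0.78 as C4b alone (adjusted p = 2.16e-08 in edgeR). C3 and the C1q chains share no such stretch with another gene.

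**Figure D3:**
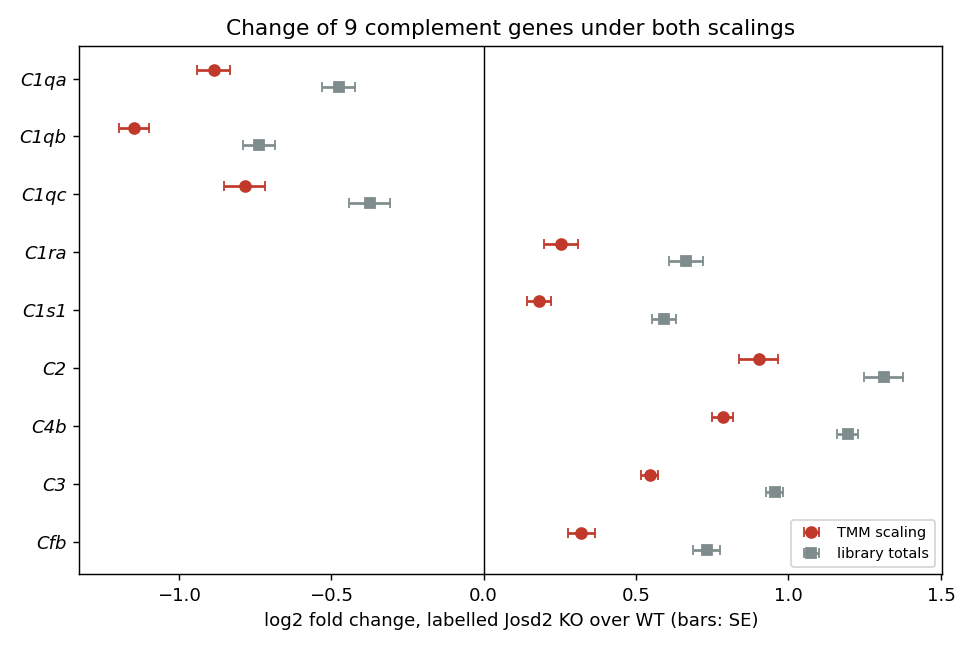
Log2 fold change of KO over WT with its SE for the 9 components, on TMM-scaled counts and on library totals. Both scales put C1qb, C1qa and C1qc below 0 and the other 6 genes above 0, and library totals shift every gene up by about 0.41.

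Per length, the order of the components differed between the groups. In KO libraries C3 was highest, at 60.9 ± 0.894 FPKM, followed by C1s1 at 46.9 ± 1.06, C1qb at 40.1 ± 2.22 and C1qa at 39.6 ± 0.198 FPKM (SD, n = 3). The last 2 of these overlapped. C1ra at 31.7 ± 0.879, C4b at 28.2 ± 0.691, Cfb at 26.8 ± 0.748, C1qc at 17.98 ± 0.595 and C2 at 9.55 ± 0.290 FPKM came next, each separate from its neighbour. In WT libraries C1qb was highest, at 66.9 ± 1.53 FPKM, followed by C1qa at 55.1 ± 3.61, C3 at 31.4 ± 0.810 and C1s1 at 31.1 ± 1.27 FPKM (SD, n = 3), of which the last 2 overlapped. C1qc at 23.3 ± 1.99 FPKM overlapped C1ra at 20.03 ± 1.52 FPKM, and Cfb at 16.2 ± 0.336, C4b at 12.3 ± 0.0689 and C2 at 3.84 ± 0.107 FPKM closed the order. The place of C1qc depends on the length behind its FPKM, which corresponds to the 1931 bases of all its exons. Its longest transcript has 1203 bases. The size of ratios to the mean of the C1q chains depends on that length too. C3 over the mean of the C1q chains was 1.87 ± 0.0258 in KO libraries and 0.649 ± 0.0178 in WT libraries, a 2.88-fold difference without overlap (exact permutation p = 0.10, the smallest possible). C3 over C4b was 2.16 ± 0.0359 in KO libraries and 2.55 ± 0.0613 in WT libraries, so within the rising genes C3 lagged C4b in every KO library.

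**Figure D4:**
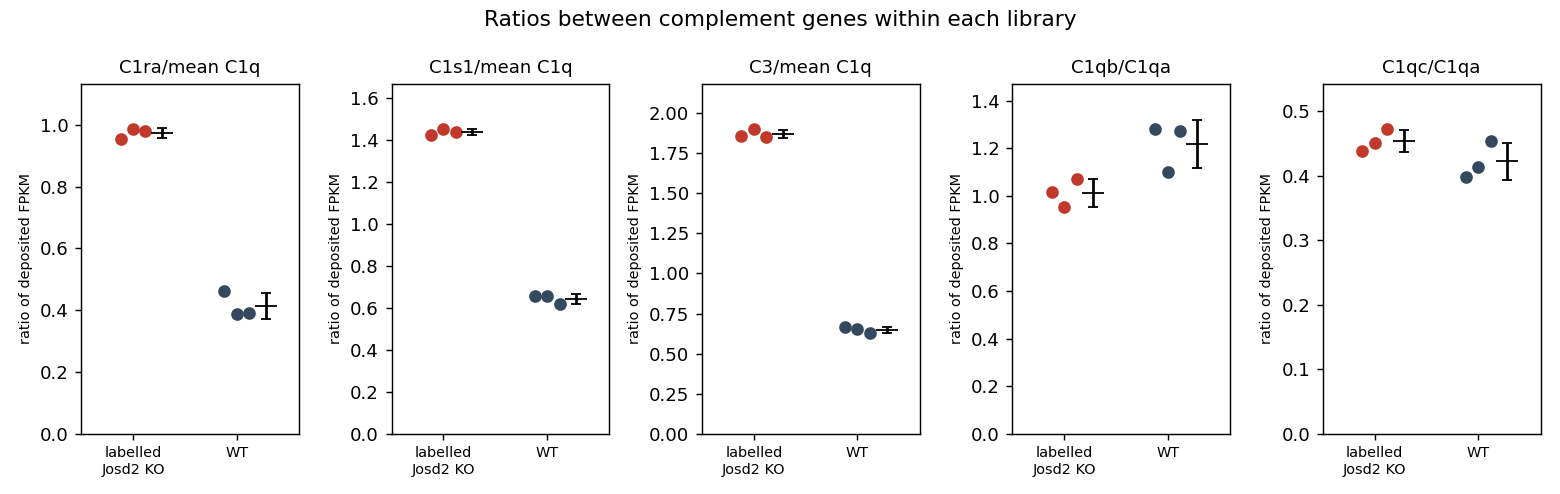
Ratios of deposited FPKM within each of the 3 KO and 3 WT libraries, on linear axes that start at 0, with points for libraries and bars for the mean and SD. C1ra, C1s1 and C3 relative to the mean of the C1q chains are 2.35, 2.24 and 2.88 times higher in the KO libraries, C1qb over C1qa is lower without overlap, and C1qc over C1qa overlaps.

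The libraries of a group differed little in these genes. The median CV over the 9 was 2.61% among KO libraries and 2.99% among WT libraries, against 4.34% and 5.70% for all genes with 1000 to 20000 counts. The largest were 5.36% for C1qb in KO libraries and 8.54% for C1qc in WT libraries. Spreads this small may be technical rather than between animals, which the labels do not settle.

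Outside the 9 components, 46 of 52 other complement genes passed the filter on low counts, of which 11 were higher, 9 lower and 26 did not pass the test, with a median log2 fold change of 0.09. The share called was 43.5%, against 24.7% of all genes tested. On library totals 22 were higher and 5 lower, in a fit where 92.5% of all calls were higher, against 53.4% with TMM. Of the lectin pathway genes and copies of classical genes, 3 of 9 tested were higher and none lower. Colec11, a soluble collectin that starts the lectin pathway, had 14.6, 17.1 and 14.2 CPM in the KO libraries, against 3.39, 4.06 and 3.10 CPM in the WT libraries (log2 fold change 2.12, SE 0.15, adjusted p = 1.31e-06 in edgeR). Every KO value was more than 3 times any WT value. Colec12, a scavenger receptor of the same family, rose by 0.56 and Masp1, the protease of the lectin complexes, by 0.84 on the log2 scale. The call for Masp1 (adjusted p = 0.0110 in edgeR) was lost without the first KO library (adjusted p = 0.0504, with 0.0511 in limma on log2(FPKM + 0.1)), and over all alternatives it ranged from 0.000337 to 0.0511.

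The other alternative pathway genes split. Cfd, factor D or adipsin, which cuts factor B and is made chiefly by fat cells, had 161 ± 4.30 CPM in KO libraries and 89.4 ± 1.18 CPM in WT libraries (SD, n = 3 each; log2 fold change 0.85, SE 0.04, adjusted p = 2.3e-08 in edgeR). Adipocyte markers stood at a summed 659.7 to 667 CPM in KO libraries and 512 to 544 CPM in WT libraries. Of these 7 markers 3 were higher, 42.9% against 13.2% of all genes tested, and their part in the Cfd value was not tested. Cfp, properdin, which is made by myeloid cells and steadies the alternative convertase, fell to 11.7 ± 0.801 CPM in KO libraries, against 20.7 ± 0.972 CPM in WT libraries (log2 fold change -0.83, SE 0.09, adjusted p = 6.38e-05 in edgeR). Of the terminal pathway genes, whose products form the membrane pore, 1 of 6 tested was called, a share of 16.7% against 24.7% of all genes tested. C7 fell by 0.63 on the log2 scale (SE 0.10, adjusted p = 0.000702 in edgeR), but by 0.22 on library totals (adjusted p = 0.0902), where 2 others of the list were called higher. C4a and Hc, the mouse C5 gene, did not pass the test.

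Of the soluble regulators, 4 of 8 tested were higher and none lower, against 13.2% and 11.5% of all genes tested. On library totals 7 of 8 were higher, in a fit that called 9425 of all 20132 genes higher. Serping1, the C1 inhibitor that blocks C1r and C1s, rose by 0.19 (SE 0.02, adjusted p = 6.05e-05 in edgeR), a difference of the same order as that of its targets. Its FPKM over the sum of C1ra and C1s1 averaged 2.87 ± 0.0953 in KO libraries and 2.91 ± 0.128 in WT libraries, with overlapping values (exact permutation p = 0.70). Vtn and Cfhr2, both at low levels, rose by 1.27 and 1.57 on the log2 scale. Clu, clusterin, had 595 ± 8.53 CPM in KO libraries and 576 ± 19.6 CPM in WT libraries and did not pass (log2 fold change 0.05, adjusted p = 0.209 in edgeR), although on library totals, at 0.46, it did.

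Of the membrane regulators, which protect host cells, 1 of 7 tested was higher and 1 lower, a share called of 28.6% that is close to the 24.7% of all genes tested. Cd59a, the inhibitor of the terminal pore, fell to 38.7 ± 1.96 CPM in KO libraries, against 56.2 ± 3.95 CPM in WT libraries (log2 fold change -0.54, SE 0.07, adjusted p = 0.00012 in edgeR). On library totals Cd59a was at -0.13 and was not called, and 4 of the list were higher. Csmd1 rose by 1.42 on the log2 scale, at a level of only 3.26 CPM in KO libraries and 1.22 CPM in WT libraries.

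Several receptors carried by myeloid cells fell. Of 12 receptor and C1q-binding genes, 6 were lower, 2 higher and 4 did not pass, with a median log2 fold change of -0.57 (4 lower and 4 higher on library totals). Over all genes tested 11.5% were lower and 13.2% higher, against 50.0% and 16.7% of these 12. Itgb2, the shared beta chain of complement receptors CR3 and CR4, had 7.25, 7.56 and 7.18 CPM in the KO libraries, against 17.2, 19.6 and 18.0 CPM in the WT libraries (log2 fold change -1.32, SE 0.10, adjusted p = 3.36e-06 in edgeR). Its partners Itgam, the CR3 alpha chain, and Itgax, the CR4 alpha chain, fell by 0.83 and 1.71 on the log2 scale. Itgam was no longer called on library totals (log2 fold change -0.42, adjusted p = 0.0616 in edgeR). C3ar1, the receptor for the C3a fragment, fell by 1.05 (SE 0.18, adjusted p = 0.00153 in edgeR), and C5ar1, the C5a receptor, by 1.09 (SE 0.14, adjusted p = 0.000239 in edgeR). C3ar1 had 5.97, 9.02 and 5.27 CPM in the KO libraries, against 13.4, 14.7 and 13.7 CPM in the WT libraries, so C3 and the receptor of its fragment moved in opposite directions. In limma on the deposited FPKM the C3ar1 difference did not pass (adjusted p = 0.0655 with a pseudocount of 1 and 0.0601 with 0.1). Cd93, an endothelial and myeloid surface protein once described as a C1q receptor, rose by 0.45, and Lrp1, a broad scavenger receptor, by 0.09. Calr, the chaperone calreticulin that also binds C1q, fell by 0.31 with TMM, but its log2 fold change was 0.10 on library totals. C1qbp had 17.0 ± 0.372 CPM in KO libraries and 16.9 ± 1.31 CPM in WT libraries and did not pass the test, although on library totals, at 0.42, it did.

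**Figure D5:**
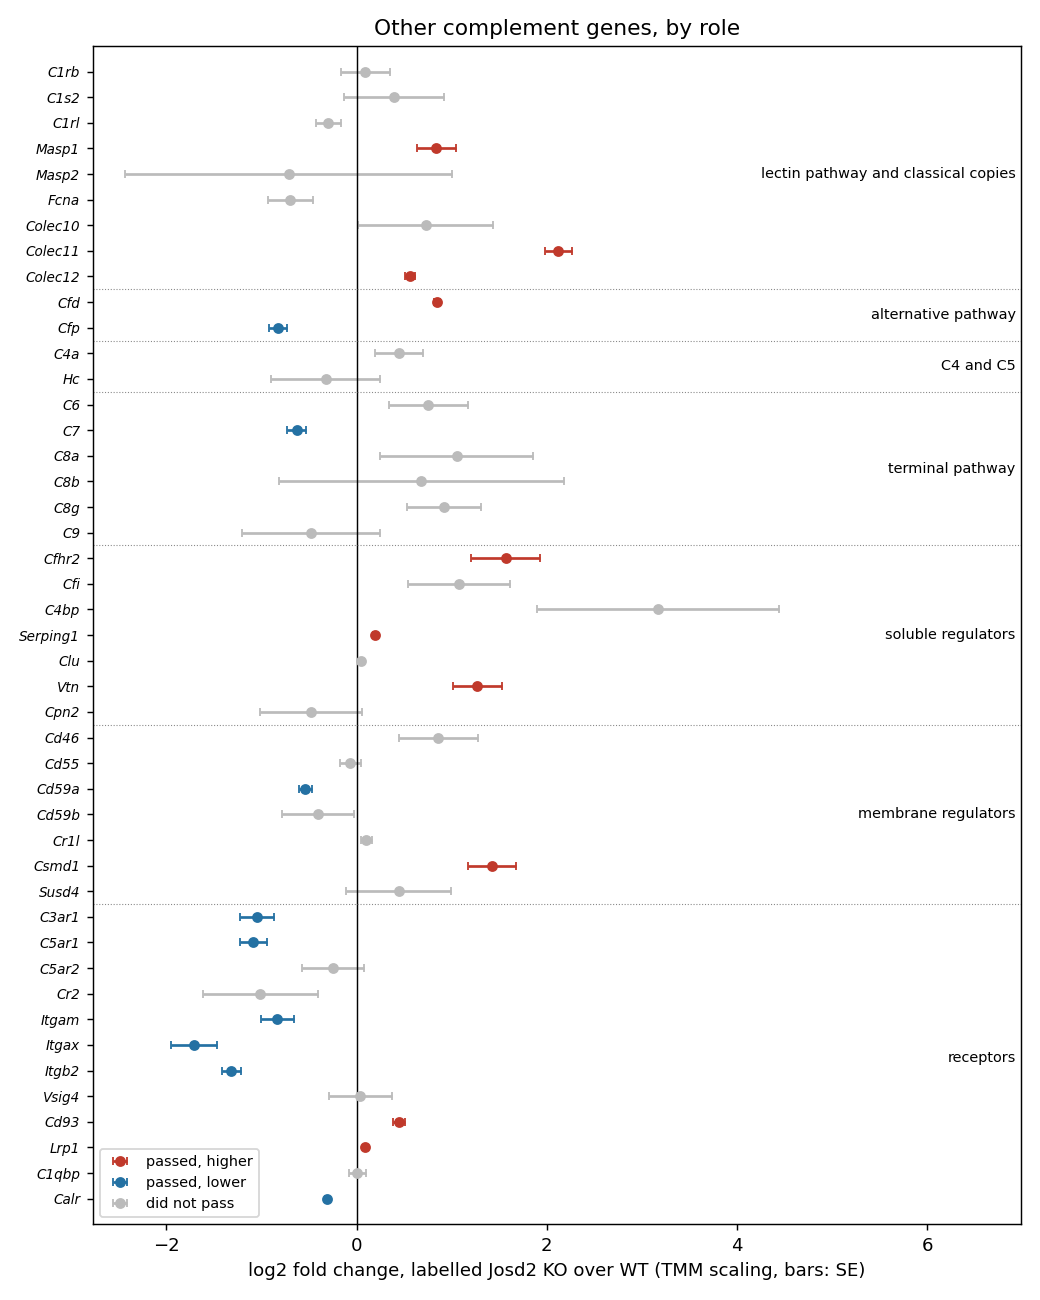
Log2 fold change of KO over WT, with its SE, for 45 of the 46 other complement genes tested, grouped by role, from edgeR on TMM-scaled counts, with colours for genes that passed the test higher, passed it lower or did not pass. The lectin pathway genes and soluble regulators that passed are all above 0, whereas 6 of the 12 receptor and C1q-binding genes passed below 0, with Itgax, at -1.71, the lowest; library totals shift all of these up and turn Calr to 0.10.

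Genes of the signals that are known to induce complement transcription did not share a direction. Among 14 tested, 5 rose and 3 fell, a share called of 57.1% against 24.7% of all genes tested. Library totals gave 10 higher and 1 lower, in a fit that called 9425 of all 20132 genes higher. Il6, the cytokine of the acute phase response, was low in all libraries, with 0.652 ± 0.114 CPM in KO libraries and 2.66 ± 0.774 CPM in WT libraries (SD, n = 3 each; log2 fold change -2.03, SE 0.32, adjusted p = 0.000803 in edgeR). Its signalling chain Il6st rose by 0.45, as did Irf1, an interferon-induced transcription factor, and Cebpd, a C/EBP factor, rose by 0.40. The interferon gamma receptor chains differed, Ifngr1 rising by 0.29 and Ifngr2 falling by 0.52 on the log2 scale, and Ifngr2 was not called on library totals. Nfkb1, at 0.24, lost its call without any of 5 of the 6 libraries (adjusted p = 0.0646 to 0.102 in edgeR), and over all alternatives its adjusted p ranged from 2.3e-05 to 0.102. Osmr, the oncostatin M receptor, was at -0.17 (adjusted p = 0.0202 in edgeR), lost its call without any of 4 libraries, and was at 0.24 on library totals.

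Markers of some other cell types that could carry complement transcripts also differed. The counts of markers called stand against 24.7% of all genes tested, 13.2% higher and 11.5% lower. Smooth muscle markers, which define the aortic wall, summed to 19835 to 19953 CPM in KO libraries and 20383 to 20556 CPM in WT libraries, with 4 of 7 higher and 1, Acta2, lower. On library totals, to which the deposited FPKM is also scaled, all 7 were higher, so the direction of the sum depends on the scaling. The labels' protocol speaks of RNA from fat, although every library is labelled aorta. Per length, in deposited FPKM, fat markers summed to at most 170 in KO libraries and 102 in WT libraries, against at least 7018 in KO libraries and 5721 in WT libraries for smooth muscle. Of 10 fibroblast markers 4 were higher and 5 lower, and on library totals 8 were higher and none lower. These 10 summed to 2413 to 2446 CPM in KO libraries and 2270 to 2311 CPM in WT libraries. All 7 endothelial markers were higher, at a summed 768 to 782 CPM in KO libraries and 439 to 448 CPM in WT libraries. Hepatocyte markers, from the organ that makes most complement, summed to 48.0 to 52.2 CPM in KO libraries and 29.9 to 33.4 CPM in WT libraries. Of these 8 markers 2 were higher, a share called of 25.0% that is close to the 24.7% of all genes tested. Lung epithelial markers summed to 1.77 to 2.91 CPM in KO libraries and 13.8 to 18.2 CPM in WT libraries, with 4 of 5 lower. Of 4 kidney tubule markers tested only Aqp2, a water channel, was called, with 0.358 CPM on average in KO libraries and 16.6 CPM in WT libraries, and the other 3 had log2 fold changes above 0. In the remaining lists few markers were called, in shares near or below the 24.7% of all genes tested except for T cells: 2 of 8 monocyte and neutrophil markers and 1 of 5 dendritic cell markers were lower, 1 of 6 B and plasma cell markers and 2 of 6 T cell markers were higher, and none of 3 mesothelial markers was called. The part of any of these in the complement values was not tested.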

How the data were processed

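RNA of 6 mouse aortas was sequenced as paired-end libraries from polyadenylated RNA, per the labels' protocols. Bowtie 0.12.2, HISAT2 2.0 and genome build mm8 are named, with no role or order, in the submitters' processing notes. No source used here states the counting tool, annotation or use of strand. The deposited table gives estimated counts and FPKM per gene, per the file headers. The counts are whole numbers, but in each library 1091 to 1137 genes stood at 4, against 792 to 867 at 3 and 472 to 519 at 5, so they were taken to be estimated counts, already whole. The deposited FPKM values are scaled to library totals that include mitochondrial genes. Coordinates are those in the table. They match GENCODE M21 on GRCm38 for all 9 components and for 86.0% of gene identifiers, and no mm8 coordinate was used.

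The 9 components were read from a fit of all genes. It used edgeR 4.0.16 in R 4.3.3 with filterByExpr, TMM and the quasi-likelihood test of 3 KO against 3 WT libraries, with no covariate and Benjamini-Hochberg adjustment over 20132 genes. The common biological coefficient of variation was 24.4%. The script was checked on simulated counts. Alternatives were DESeq2 1.42.0, limma 3.58.1 on log2(FPKM + 1) and log2(FPKM + 0.1), other scalings and filters, counts divided by 4, a replicate block, and each library left out. Ratios and levels per length used deposited FPKM, with exact permutation tests. Near copies were found with BLAST+, and motifs were searched in the RefSeq promoter table.

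Josd2 and the 9 components were named, as was every other complement gene or inducer that was called and every regulator or receptor with a mean FPKM of at least 5. Some genes that meet these rules are not reported here. The components, the lists and the markers were chosen with earlier results of these data known.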

Additional observations from a re-analysis of the deposited data

How the results depend on the processing

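All 9 components kept their direction and their call under every alternative run, including the replicate block and each library left out. The narrowest were C1ra and C1s1 without the third KO library (adjusted p = 0.0298 and 0.0291 in edgeR). Scaling to library totals, which include the mitochondrial genes, called 10193 genes in place of 4981, and limma on FPKM, which shares that scaling, called 8740 with a pseudocount of 1 and 8845 with 0.1. For the other complement genes these settings gave 22, 18 and 17 higher in place of 11, and 5, 4 and 4 lower in place of 9. Calr then turned to 0.10 in each of the 3, and Osmr to 0.24 on library totals and to 0.20 and 0.24 in limma. C1qbp, not called, was at -0.0079 with mean FPKM of at least 1, -0.0087 with counts divided by 4, and -0.047 to 0.059 with 1 library left out. With 1 library left out, 3756 to 4458 genes were called in all. Same-numbered libraries did not deviate together (r = 0.022, -0.026 and -0.016), and not every library correlated best with its own number. With the replicate block 4560 genes, all 9 components and 20 other complement genes were called. Low genes such as Csmd1, Cfhr2, Il6 and Itgax rest on few reads, and the unit of the counts is uncertain.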

Other observations

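The genes that flank the complement loci gave a further set of values. Within 50 kb of the C1q chains, 1 other gene was tested, Ephb2, an ephrin receptor, and it was higher in KO libraries (log2 fold change 0.61), opposite to the chains. Near C1ra and C1s1, Clstn3 was higher (log2 fold change 1.31), while C1rl and C1rb did not pass the test. Around C4b, Cfb and C2, 11 neighbours were tested, of which 2 were higher, Tnxb by 0.16 and Skiv2l by 0.24, and 9 did not pass. Near C3, Gpr108 and Trip10 were higher, by 0.25 and 0.49, and Tnfsf14 did not pass. Over all genes tested 13.2% were called higher and 11.5% lower, and these small counts only describe the neighbours.

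Over the 6 libraries, the 4 genes most like the mean of the C1q chains by Pearson's r of log2(CPM + 0.5), among 4536 tested genes with a mean FPKM of at least 5, were Nupr1, Palld, Rps20 and Arpc2. Among those most like C3 were Flna, Pbxip1 and Adcy5. The libraries form 2 groups, so this likeness reads mostly the difference between them, and 200 genes for the C1q mean and 176 for C3 had r above 0.99.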
